A study of Homo sapiens with 7 samples.

Results

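Transcription factors that build and maintain the pancreas and its ducts were followed in clones of Panc1, an established human cell line from a pancreatic ductal carcinoma. The 8 genes were SOX9, PDX1, GATA4, GATA6, FOXA1, FOXA2, ONECUT2 and KLF5. They were read by all probe sets annotated to one of these symbols and to no other gene, which gave 24 probe sets out of 54613 on the array, and each of the 8 genes had more than 1. The genes were chosen by name and function, with earlier results of these data known, and not by a threshold on their values.

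FOXA1 and FOXA2 are pioneer forkhead factors that open chromatin in the foregut endoderm. GATA4 and GATA6 are zinc finger factors, PDX1 is a homeodomain factor and ONECUT2 is a cut-homeodomain factor, and these act in the specification of the pancreas. SOX9 is an HMG-box factor of pancreatic progenitors that persists in adult duct cells, and it also directs cartilage formation. KLF5 is a Krüppel-like zinc finger factor of proliferating epithelia. In pancreatic cancer, GATA6 and its partners are known for their part in the classical, more differentiated state.

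The study sought genes regulated by S100P, a small calcium-binding protein. Panc1 cells carried either pcDNA3.1/S100P-V5-His, which encodes tagged S100P, or the control vector pcDNA3.1/V5-His, and single cells were grown out as stable clones. The S100P-labelled arm held 4 arrays, 2 each of clone 1 and clone 5, and the vector arm held 3, a pair from V3 and 1 from V1. The letters a and b of paired arrays are those of the labels, which do not say whether they mark separate cultures. Each clone grew from 1 cell, so a difference between arms with 2 clones each cannot be told apart from a difference between clones. V1 also carries a differently built array name, so its clone and its handling cannot be told apart.

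Values are log2 expression from Affymetrix HG-U133 Plus 2 arrays, on which a difference of 1 is a 2-fold difference. The array medians lay between 4.51 and 4.58, and arrays of one clone correlated at 0.996 to 0.998 across probe sets. The S100P probe set read 5.36 to 5.95 on the S100P-labelled arrays and 4.65 to 6.01 on the vector arrays, so the arms overlapped (log2 difference 0.27, SE 0.32, limma adjusted p = 0.846). Whether it reads the transgene is unknown here, and directions below are those of the arms as labelled. Of the duct markers, 7 of the 9 measured lay above the median of every array (KRT7, KRT8, KRT18, KRT19, MUC1, EPCAM and CLDN4). CFTR and SPP1 lay below it. Above the median of every array were 1 of 6 acinar markers, 0 of 8 endocrine, 3 of 10 fibroblast, 3 of 8 leukocyte and 1 of 10 endothelial markers. The mean over the duct markers was 7.88 to 8.26 on the S100P-labelled arrays and 8.21 to 8.60 on the vector arrays. The mean over the endocrine markers was 3.63 to 3.71 and 3.55 to 3.84.

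The duct factor SOX9 lay far above the array medians in all clones, while PDX1 and GATA6 lay below them. Both SOX9 probe sets, both FOXA2 probe sets outside the dim one, 3 GATA4 probe sets and 2 ONECUT2 probe sets lay above the median of every array, which made 9 of 24. Another 13 lay below the median of every array, including all probe sets of PDX1, GATA6 and 1 of the FOXA1 pair. Detection calls were not used here, so a value below the median is not called absent. Over the 7 arrays 12 of the 24 probe sets spanned less than 0.5.

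**Figure D1:**
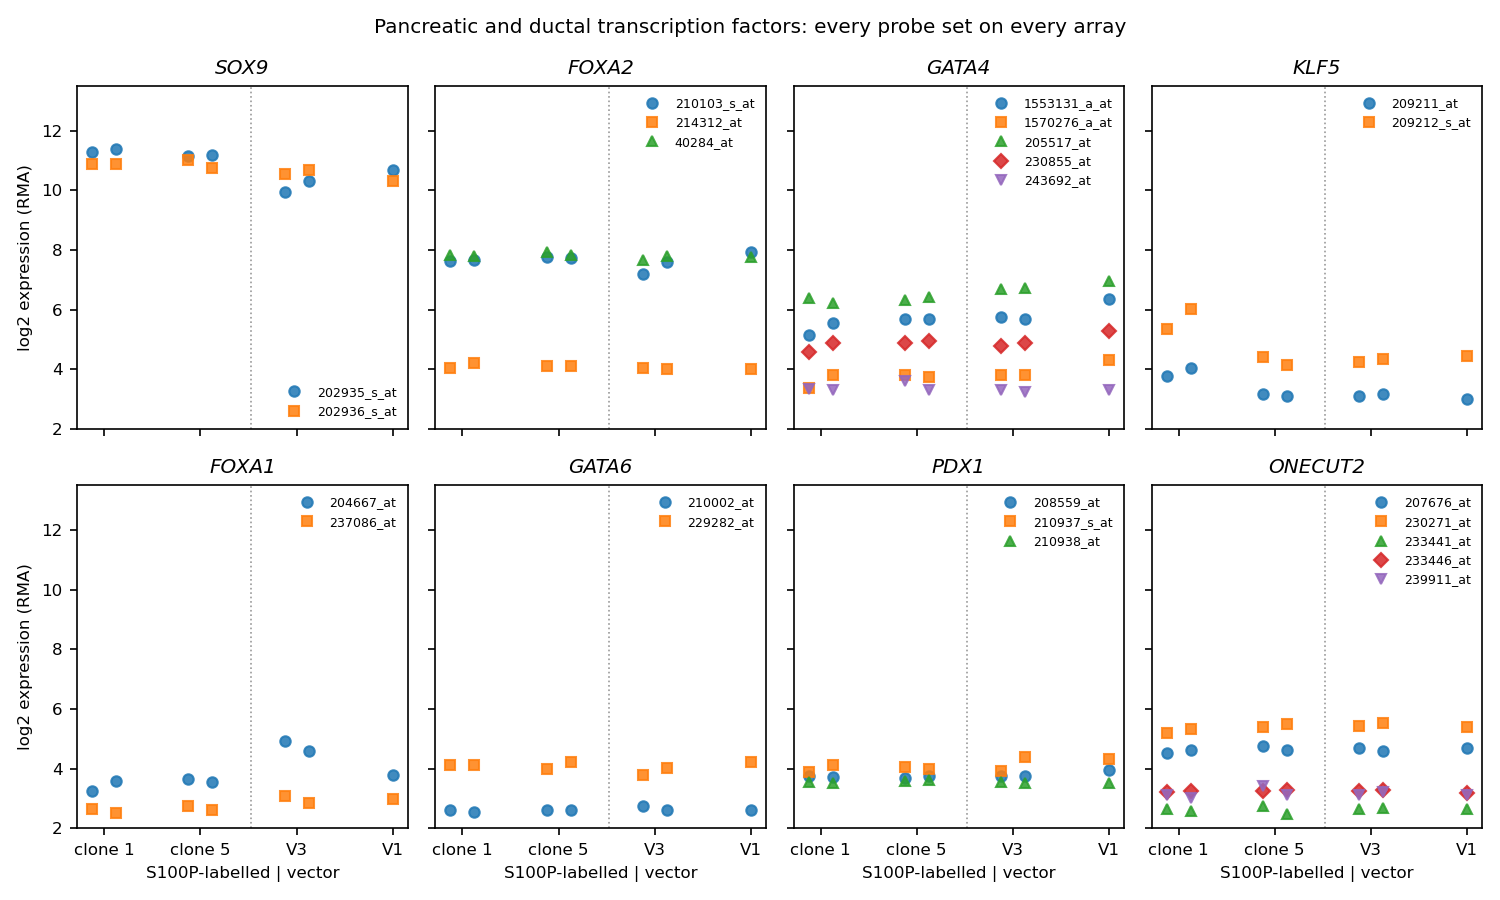
Log2 expression (vertical axis) of each probe set of the 8 factors on each of the 7 arrays, by clone (horizontal axis); each point is 1 array, colours and shapes mark probe sets, and a dotted line parts the S100P-labelled clones from the vector clones. SOX9 lies between 9.96 and 11.39, while KLF5 is highest on the clone 1 arrays and FOXA1 on the V3 arrays.

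None of the 24 probe sets passed the test between arms, where 1.12% of all probe sets did. The test was limma with the clone as a random block and Benjamini-Hochberg adjustment over all 54613 probe sets, at an adjusted p of 0.05. At an unadjusted p under 0.05 there were 5 of 24, and 6468 of all 54613. The median log2 difference of the 24 was -0.006, and that of all probe sets was -0.002. On 7 of the 24 the arms did not overlap, against 11.4% of all probe sets. The S100P-labelled arrays were all higher at 3 (both SOX9 probe sets and FOXA2 40284_at), against 6.74% of all probe sets. They were all lower at 4 (both FOXA1 probe sets, GATA4 205517_at and GATA4 1553131_a_at), against 4.63%. Between single clones, KLF5 was lower in clone 5 than in clone 1 and FOXA1 was lower in V1 than in V3.

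**Figure D2:**
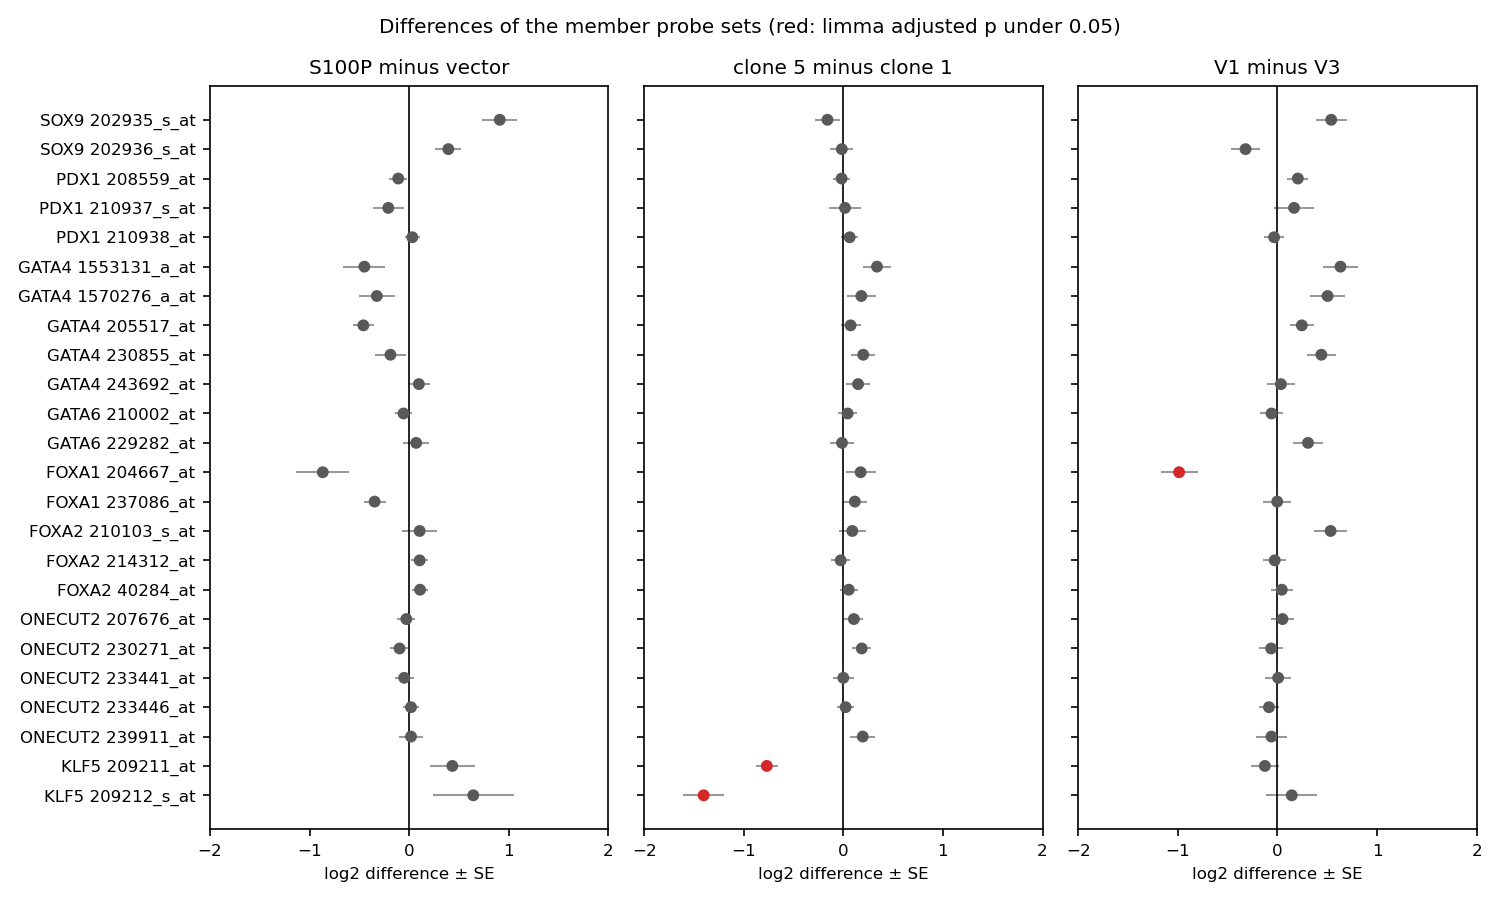
Log2 difference (horizontal axis, with its standard error as a bar) of each of the 24 probe sets in 3 comparisons: S100P-labelled minus vector arrays, clone 5 minus clone 1, and V1 minus V3. Red marks a limma adjusted p under 0.05, reached by 0, 2 and 1 probe sets; SOX9 202935_s_at has the highest difference of arms at 0.91.

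SOX9 lies on chromosome 17 (GRCh38.p14, chr17:72121020-72126416). Its probe set 202935_s_at read 11.29 and 11.39 in clone 1 and 11.16 and 11.20 in clone 5. On the vector side it read 9.96 and 10.32 in V3 and 10.68 in V1. All 4 S100P-labelled arrays were thus higher than all 3 vector arrays, and they lay close together while the vector arrays spread. The RNA came from whole cultures, so more transcript per cell and more cells with the transcript cannot be told apart. The means were 11.26 ± 0.10 (SD, n = 4) and 10.32 ± 0.36 (SD, n = 3). The fitted log2 difference was 0.91 (SE 0.17), a 1.88-fold higher level, and it missed the threshold (limma adjusted p = 0.0549).

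The other SOX9 probe set, 202936_s_at, read 10.90 and 10.90 in clone 1 and 11.02 and 10.75 in clone 5. It read 10.55 and 10.70 in V3 and 10.30 in V1. The arms again did not overlap, but the lowest S100P-labelled array and the highest vector array differed little. The difference of arms was 0.39 (SE 0.13, limma adjusted p = 0.257). The pair of probe sets disagreed on the vector clones: V1 was higher than V3 by 0.54 at 202935_s_at (adjusted p = 0.104) and lower at 202936_s_at, with a difference of -0.32 (adjusted p = 0.279). Between clones 5 and 1 neither passed (-0.16, SE 0.13, adjusted p = 0.625, and -0.01, SE 0.12, adjusted p = 0.974).

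The SOX9 difference at 202935_s_at crossed the threshold with the processing and with the vector clones used. With all arrays kept, it was called without the clone block, with an intensity trend, with quantile normalization and with median centring (limma adjusted p 0.0257 to 0.0484). Also with all arrays kept, it was not called with clone means as units or with a filter on dim probe sets (mean of at least 5). Without V1 it was 1.12 (limma adjusted p = 0.00571), and without clone V3 it was 0.58 (adjusted p = 0.0706). It was called in 6 of 17 alternative analyses, with limma adjusted p from 0.00571 to 0.483. The difference ranged from 0.58 to 1.12, with the S100P-labelled clones always higher. The 202936_s_at probe set was called in 0 of 17, with adjusted p from 0.0926 to 0.593 and the same sign throughout.

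**Figure D3:**
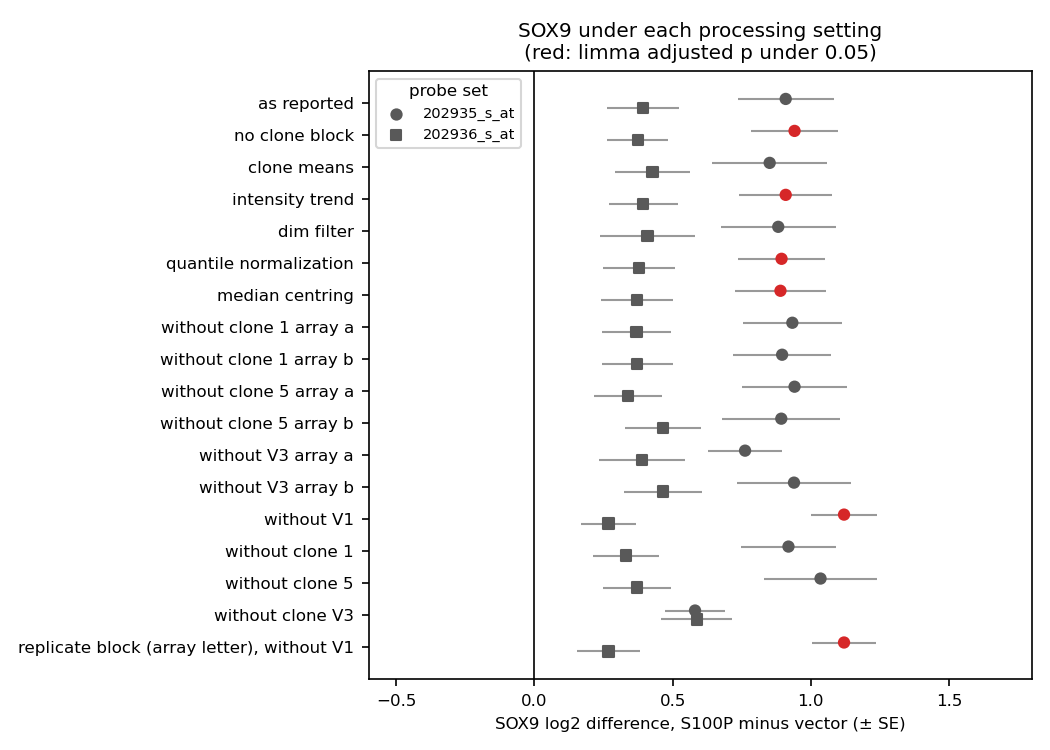
SOX9 log2 difference, S100P-labelled minus vector (horizontal axis, bars are standard errors), at its 2 probe sets under the reported analysis and 17 alternatives (vertical axis). Red points have a limma adjusted p under 0.05, which 202935_s_at reaches in 6 alternatives and 202936_s_at in 0; all points lie above 0.

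The genes most like SOX9 over the 7 arrays were HACD3, an enzyme of very long chain fatty acid synthesis, ALCAM, a cell adhesion molecule, and TNFRSF12A, the receptor of TWEAK. Their Pearson r with 202935_s_at was 0.997, 0.991 and 0.988, the highest of 1978 genes that spanned at least 1 log2 unit. The 7 arrays come from 4 clones, so these are no independent points and the values are a description. HACD3, for example, read 12.20 and 12.27 in clone 1, 12.14 and 12.16 in clone 5, 11.12 and 11.31 in V3 and 11.69 in V1.

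Of 10 cartilage genes known as SOX9 targets, 1 passed between arms. This was COL11A1, a fibrillar collagen chain, which read 11.11 to 11.45 on the S100P-labelled arrays, 8.92 and 8.91 in V3 and 7.04 in V1. It was higher in the S100P-labelled arm by 3.08 (SE 0.44, limma adjusted p = 0.0189), 8.47-fold. The call was lost when any single array of clone 1, clone 5 or V3 was left out (adjusted p 0.056 to 0.0720), and without V1 the difference was 2.35 (adjusted p = 2.04e-04). COL11A1 was also not called with clone means as units. The other 9 did not pass, and the median of the 10 was -0.05. With 1 probe set per gene, the share of all genes called was 1.55%, or 1.03% for higher and 0.526% for lower calls. V1 was below V3 for COL11A1, by 1.88 (a 3.68-fold difference, limma adjusted p = 9.63e-04). For SOX9 itself V1 minus V3 was 0.54 at 202935_s_at and -0.32 at 202936_s_at, and neither was called.

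Of 12 other SOX genes, 0 passed between arms by limma (2 at an unadjusted p under 0.05), and their median difference was 0.13. The largest differences were those of SOX6, which acts with SOX9 in cartilage (0.63, SE 0.15, limma adjusted p = 0.120), and SOX12 (0.35, SE 0.13, adjusted p = 0.328). SOX6 averaged 5.83 ± 0.15 (SD, n = 4) on the S100P-labelled arrays and 5.17 ± 0.26 (SD, n = 3) on the vector arrays, without overlap.

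KLF5, on chromosome 13 (chr13:73054976-73077538), separated the S100P-labelled clones from each other. Its probe set 209212_s_at read 5.37 and 6.03 in clone 1 but 4.43 and 4.16 in clone 5. It read 4.24 and 4.35 in V3 and 4.44 in V1. Clone 1 stood apart from the other clones, and clone 5 overlapped the vector clones. KLF5 was 2.64-fold lower in clone 5 than in clone 1 (limma adjusted p = 0.0234, log2 difference -1.40, SE 0.21). The second probe set, 209211_at, read 3.79 and 4.04 in clone 1, 3.19 and 3.10 in clone 5, 3.10 and 3.19 in V3 and 3.02 in V1. Clone 1 was again the highest, and the level was 1.70-fold lower in clone 5 (-0.77, SE 0.11, adjusted p = 0.0219). These were 2 of 24 probe sets called in that comparison, against 2.19% of all probe sets, or 1.60% for lower calls alone. Both read the same gene and correlated at 0.976 over the arrays. With 1 probe set per gene, 1 of the 8 factors was called, against 3.02% of all genes, or 2.35% for lower calls.

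Both KLF5 calls rest on few arrays. With any single array of clone 1, clone 5 or V3 left out, the adjusted p was 0.117 to 0.285 at 209211_at and 0.141 to 0.260 at 209212_s_at. The difference kept its sign, at -1.73 to -1.07 for 209212_s_at. In those fits 0 of all 54613 probe sets passed by limma, with 4468 to 11537 at an unadjusted p under 0.05. Between arms KLF5 differed by 0.64 (SE 0.41, adjusted p = 0.633) and 0.43 (SE 0.22, adjusted p = 0.515). Without clone 5 these became 1.36 (adjusted p = 0.0367) and 0.81 (adjusted p = 0.0284), and without clone 1 they were -0.03 and 0.03. The 3′ minus 5′ signal of ACTB, a measure of RNA quality, was also highest in clone 1, at 0.53 and 0.44 against 0.18 to 0.32 on the other arrays. That of GAPDH was not, at 0.079 and 0.082 in clone 1 against 0.092 and 0.139 in V3. The part of RNA quality in the KLF5 result was not tested.

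The genes most like KLF5 over the 7 arrays were GBX2, a homeobox factor (r = 0.982), CXCR4, the receptor of the chemokine CXCL12 (r = 0.965), and PPP1R15A, a stress-induced regulator of protein synthesis (r = 0.964). CXCR4 read 6.02 and 6.25 in clone 1, 4.12 and 4.07 in clone 5, 3.70 and 3.93 in V3 and 4.34 in V1. As for KLF5, clone 1 was high and the other clones lay close together. CXCR4 was picked by its correlation on these same arrays, so this likeness is a description only.

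Other Krüppel-like factors also differed between clone 5 and clone 1. Of 13 KLF genes and SP1, which bind similar GC-rich sites, 5 were lower in clone 5 and 0 were higher, against 2.35% lower over all genes. The median of the 14 was -0.48, and that of all genes was 0.02. KLF4, a factor of epithelial differentiation, read 7.19 and 7.08 in clone 1 and 5.66 and 5.80 in clone 5, where it was lower by 1.40 (SE 0.10, limma adjusted p = 0.00191). Unlike KLF5, its vector arrays lay between those clones, at 6.40 to 6.46. KLF10, which is induced by TGF-beta, read 9.79 and 9.64 in clone 1 and 8.75 and 8.73 in clone 5, where it was lower by 0.97 (SE 0.11, adjusted p = 0.0101). Its V3 arrays read 9.68 and 9.45 and its V1 array 9.15, all between the means of those clones. The other called genes were KLF3 (-0.77), KLF6 (-0.95) and KLF12 (-0.87), named after their values were seen. With any single array of clone 1, clone 5 or V3 left out, none of these calls stood, nor did any other call in this comparison. Between arms 0 of the 14 passed by limma (3 at an unadjusted p under 0.05), with KLF6 (0.65, SE 0.28, adjusted p = 0.408) and SP1 (0.52, SE 0.21, adjusted p = 0.380) the largest.

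**Figure D4:**
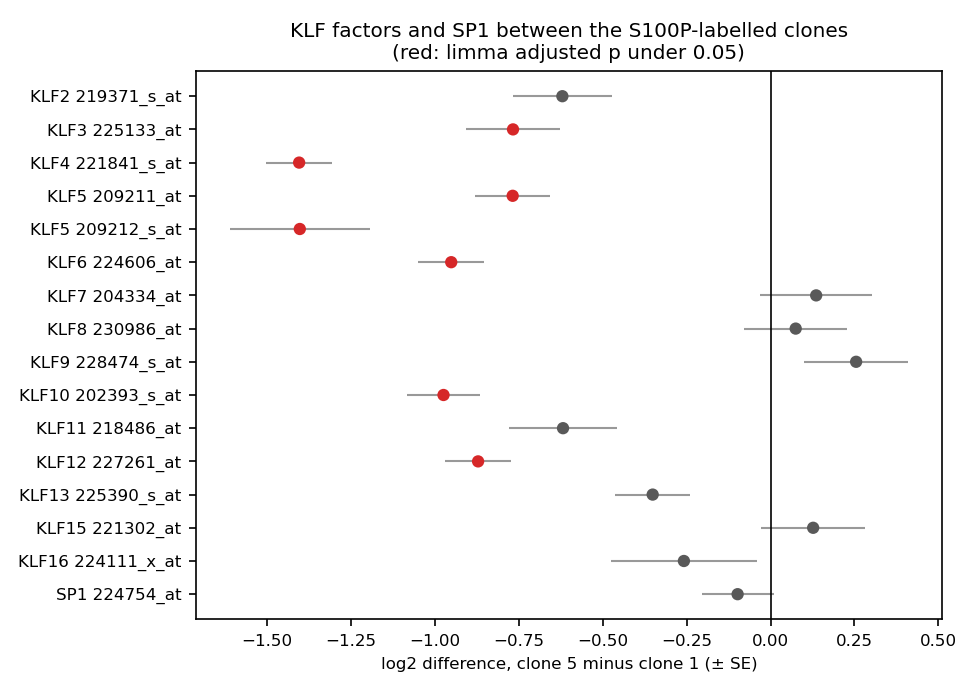
Log2 difference of clone 5 minus clone 1 (horizontal axis, bars are standard errors) for KLF5 at both probe sets and for 13 other KLF genes and SP1 at their probe set of highest mean. Red marks a limma adjusted p under 0.05, reached by both KLF5 probe sets and by KLF3, KLF4, KLF6, KLF10 and KLF12, all lower in clone 5.

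FOXA1, on chromosome 14 (chr14:37589552-37595249), gave low values that were highest in V3. Its probe set 204667_at read 4.94 and 4.59 in V3 and 3.78 in V1. On the S100P-labelled side it read 3.27 and 3.58 in clone 1 and 3.65 and 3.54 in clone 5. All S100P-labelled arrays were lower than all vector arrays, but V1 lay close to them. FOXA1 was 1.98-fold lower in V1 than in V3 (limma adjusted p = 0.0283, log2 difference -0.99, SE 0.19). This was the 1 probe set of 24 called between the vector clones, against 5.85% of all probe sets, or 3.28% for lower calls. The call was lost when any single array of clone 1, clone 5 or V3 was left out. Without an array of clone 1 or V3 the same held for every call in this comparison, so that loss is not particular to FOXA1. Over 9 alternative analyses the difference stayed between -1.16 and -0.81.

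Between arms the FOXA1 difference at 204667_at was -0.87 (SE 0.27, limma adjusted p = 0.222). Without V1 it was -1.26 (adjusted p = 0.00671), and without clone V3 it was -0.27 (adjusted p = 0.504). The second probe set, 237086_at, read 2.64, 2.50, 2.75 and 2.62 on the S100P-labelled arrays and 3.10, 2.86 and 2.97 on the vector arrays. Its arms did not overlap (-0.35, SE 0.11, adjusted p = 0.238), and V1 and V3 were level there (V1 minus V3, -0.002). Both probe sets lay near or below the array medians, where RMA can compress differences.

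The genes most like FOXA1 over the 7 arrays were HHIPL2 (r = 0.989), the tetraspanin TSPAN8 (r = 0.983) and ARMCX2 (r = 0.980). TSPAN8 read 2.87 and 3.02 in clone 1, 3.28 and 3.18 in clone 5, 4.80 and 4.74 in V3 and 3.30 in V1. It shared with FOXA1 the high V3 arrays and a V1 array near the S100P-labelled clones. TSPAN8 was picked by its correlation on these same arrays, so this likeness is a description only. TSPAN8 also stands in the duct and classical subtype lists below.

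The sequences just before the annotated starts of KLF5 and FOXA1 are shown because these were the genes with a called difference between clones. They are the 250 bases before each start in RefSeq (GRCh38.p14), 5′ to 3′ on the strand of the gene. Capitals mark GC boxes, GGGCGG or its reverse complement CCGCCC, the kind of site that KLF factors and SP1 bind. KLF5 has 2 annotated starts, and the second window lies inside the span of the gene.
KLF5, first start, chr13:73054726-73054975, plus strand: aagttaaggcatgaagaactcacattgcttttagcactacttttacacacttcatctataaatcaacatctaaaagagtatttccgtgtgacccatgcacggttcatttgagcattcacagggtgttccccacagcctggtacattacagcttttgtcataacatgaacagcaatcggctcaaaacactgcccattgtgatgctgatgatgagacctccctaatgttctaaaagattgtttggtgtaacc
KLF5, second start, chr13:73058755-73059004, plus strand: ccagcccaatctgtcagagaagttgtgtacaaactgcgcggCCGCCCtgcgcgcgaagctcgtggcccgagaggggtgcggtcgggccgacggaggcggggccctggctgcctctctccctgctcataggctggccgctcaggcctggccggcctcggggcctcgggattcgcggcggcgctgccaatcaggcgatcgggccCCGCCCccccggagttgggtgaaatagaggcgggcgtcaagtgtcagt
FOXA1, chr14:37595250-37595499, minus strand: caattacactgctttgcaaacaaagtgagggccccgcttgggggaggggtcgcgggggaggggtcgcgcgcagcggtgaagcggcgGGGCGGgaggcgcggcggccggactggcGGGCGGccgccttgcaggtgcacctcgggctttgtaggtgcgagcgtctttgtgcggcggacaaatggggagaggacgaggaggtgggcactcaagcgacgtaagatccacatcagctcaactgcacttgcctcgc

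Of 35116 such windows in RefSeq, 42.6% held a GC box on either strand, so a match is common. The first KLF5 window had 0 GC boxes and a G and C content of 40.8%, and the second had 2 and 70.8%. The FOXA1 window had 2 and 67.2%, and the median of all windows was 58.0%. The letters AACAAT or ATTGTT, a core that SOX factors bind, occurred 1 time in the first KLF5 window and in 9.0% of all windows. The forkhead letters TGTTTAC or GTAAACA, found in 3.0% of windows, occurred in none of these 3. CCAAT or ATTGG, found in 32.0%, occurred 2 times in the second KLF5 window and in neither of the others. The arrays do not tell which KLF5 start was used. A window was also matched for GATA6 and ONECUT2, and none for SOX9, PDX1, GATA4 and FOXA2.

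FOXA2, the other forkhead factor (chr20:22580998-22585490), was nearly level. Its probe set 40284_at read 7.85, 7.81, 7.92 and 7.84 on the S100P-labelled arrays and 7.67, 7.79 and 7.77 on the vector arrays. The arms did not overlap, yet the difference was only 0.11 (SE 0.08, limma adjusted p = 0.722), 1.08-fold. The probe set 210103_s_at read 7.20 and 7.59 in V3 and 7.93 in V1, on both sides of the S100P-labelled arrays at 7.64 to 7.78 (0.11, SE 0.17, adjusted p = 0.900). The dim probe set 214312_at stayed between 4.004 and 4.224.

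GATA4, on chromosome 8 (chr8:11676935-11760002), tended the other way at its brightest probe set. There, at 205517_at, it read 6.41, 6.22, 6.33 and 6.44 on the S100P-labelled arrays. It read 6.71 and 6.72 in V3 and 6.96 in V1. All vector arrays were higher, with means of 6.35 ± 0.10 (SD, n = 4) and 6.80 ± 0.14 (SD, n = 3), but the difference of -0.46 (SE 0.11) did not pass (limma adjusted p = 0.103). It was called in 0 of 17 alternatives, with adjusted p from 0.0564 to 0.488 and the same sign in all.

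The other GATA4 probe sets were less clear. At 1553131_a_at the S100P-labelled arrays read 5.14 to 5.69 and the vector arrays 5.70 to 6.36, a difference of -0.45 (SE 0.21, limma adjusted p = 0.462). V1 was the highest array there and at 1570276_a_at and 230855_at, by 0.63, 0.50 and 0.44 over V3, with adjusted p from 0.0862 to 0.164. At 1570276_a_at 4 of the 7 arrays shared the value 3.82. Between arms 1570276_a_at, 230855_at and 243692_at differed by -0.32, -0.19 and 0.10, with overlap.

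GATA6, PDX1 and ONECUT2 gave low or level values on every array. GATA6 (chr18:22169589-22202528) read 3.80 to 4.23 at 229282_at and 2.54 to 2.74 at 210002_at, where 5 of 7 arrays shared the value 2.62. Its differences of arms were 0.07 (SE 0.13) and -0.06 (SE 0.08). PDX1 (chr13:27920000-27926313) read 3.51 to 4.39 over 3 probe sets, with differences from -0.21 to 0.03 and limma adjusted p from 0.700 to 0.939. ONECUT2 (chr18:57435374-57491298) had its brightest probe set, 230271_at, at 5.19 to 5.51. Over its 5 probe sets the differences lay between -0.10 and 0.02 (adjusted p 0.814 to 0.980). In neither clone comparison was a probe set of these 3 genes called.

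Among 39 other transcription factors of the pancreas and its ducts, 30 were measured by a probe set of their own, and 0 passed between arms by limma (5 at an unadjusted p under 0.05). Their median difference was -0.03. The largest differences were those of GATA3 (1.28, SE 0.48, limma adjusted p = 0.328) and HNF4G (0.86, SE 0.19, adjusted p = 0.0948). HNF4G, a nuclear receptor, read 5.49 to 5.83 on the S100P-labelled arrays and 4.46 to 5.25 on the vector arrays, without overlap.

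GATA3, a relative of GATA4 and GATA6 with a known part in other epithelia, varied between clones of both arms. It read 9.08 and 9.04 in clone 1, 7.49 and 7.52 in clone 5, 7.33 and 7.51 in V3 and 6.35 in V1. Clone 1 was thus high, as for KLF5, and V1 low. GATA3 was lower in clone 5 than in clone 1 by 1.55 (SE 0.10, limma adjusted p = 0.00115) and was lower in V1 than in V3 by 1.07 (adjusted p = 0.00539). It was the 1 gene of that list called between clones 5 and 1, against 3.02% of all genes. That call was lost when any single array of clone 1, clone 5 or V3 was left out, as was every call in that comparison.

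Between the vector clones 3 of the 30 other factors passed, all lower in V1 (GATA3, HES1 and ELF3), against 5.08% lower over all genes. ELF3, an epithelial ETS factor, read 7.81 and 7.86 in V3 and 6.11 in V1, with the S100P-labelled arrays at 6.37 to 6.51. It was 3.31-fold lower in V1 (-1.73, SE 0.11, limma adjusted p = 0.00114). KLF13 was 2.33-fold lower (-1.22, adjusted p = 0.00563), reading 9.26 and 9.02 in V3 and 7.92 in V1. KLF12 was also lower and SP1 higher, so 3 of these 14 genes passed there, against 7.72% of all genes in either direction. Of the 12 SOX genes 1 passed, SOX4 (-0.94). In this comparison V1 has 1 array and is assumed to vary like the other clones. Without any single array of clone 1 or V3, 0 of all probe sets passed by limma, with 8584 to 11733 at an unadjusted p under 0.05. Without either clone 5 array the calls of ELF3, KLF13, GATA3 and SOX4 stood, and those of KLF12, HES1 and SP1 were lost.

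Of 18 duct cell genes 17 were measured, and 1 passed between arms, against 1.55% of all genes, or 1.03% for higher calls. The gene that passed was CD24, a surface glycoprotein, at 11.64 to 11.82 on the S100P-labelled arrays and 6.42 to 7.10 on the vector arrays (4.93 higher, SE 0.17, limma adjusted p = 1.16e-05). CD24 was called in 16 of 17 alternative analyses. It was not called with clone means as units (limma adjusted p = 0.0626). The median of the 17 genes was -0.05. Between clones 5 and 1 the keratins KRT8, KRT18 and KRT19, filament proteins of simple epithelia, were higher in clone 5, by 1.15, 0.69 and 1.32 (adjusted p = 0.0110, 0.0157 and 0.00215). These were 3 of 17, against 0.673% of all genes called higher. KRT19 read 10.80 and 10.83 in clone 1, 12.05 and 12.23 in clone 5, 12.33 and 12.36 in V3 and 11.74 in V1, so clone 1, where KLF5 was highest, was the lowest for KRT19. These keratin calls too were lost with any single array of clone 1, clone 5 or V3 left out, as was every call in that comparison. Between the vector clones 1 gene of the list was higher in V1 (CA2), against 2.64% of all genes, and 4 were lower (KRT8, KRT19, TSPAN8 and CD24), against 5.08%. The keratins and CA2 were named after their values were seen.

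In each of the tumour subtype lists 1 gene passed between arms, lower in the S100P-labelled arm, where 0.526% of all genes were called lower. Of 24 classical subtype genes 22 were measured. CDH17, a cadherin of gut epithelia, read 4.40 to 4.70 on the S100P-labelled arrays and 5.14 to 5.53 on the vector arrays, and was lower in the S100P-labelled arm by 0.82 (SE 0.13, limma adjusted p = 0.0282). The call was lost without either clone 1 array, clone 5 array b or either V3 array (adjusted p 0.0510 to 0.127). CDH17 was also not called with clone means as units. The median of the 22 was -0.07. Of 25 basal-like subtype genes 19 were measured, with a median of -0.12. CTSV, a lysosomal cysteine protease, read 9.13 to 9.43 on the S100P-labelled arrays and 9.82 to 10.22 on the vector arrays, and was lower in that arm by 0.75 (SE 0.13, adjusted p = 0.0374). That call was lost without any single array of clone 1, clone 5 or V3 (adjusted p 0.0538 to 0.151). CTSV was also not called with clone means as units. Between clones 5 and 1, 0 genes of either subtype list passed by limma (3 classical and 4 basal-like at an unadjusted p under 0.05). Between the vector clones 4 classical genes (AGR2, TFF3, LGALS4 and TSPAN8) and 1 basal-like gene (SLC2A1) were lower in V1, against 5.08% of all genes.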

How the data were processed

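RNA of 4 Panc1 clones was hybridised to 7 Affymetrix arrays. The authors computed the deposited log2 expression values with RMA, per the submitters' processing notes; its version is not given in the sources used here. The deposited table ran from about 2 to 14 on each array and was used as log2 values; array number, not depth, limits the precision.

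Of 54675 probe sets 62 were controls. Genes were named from probe sets with 1 symbol in the platform annotation (41091), and a gene outside the 8 factors was read by its brightest probe set on average (19775 genes). All 24 probe sets of the factors matched a current gene by Entrez number.

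Tests used limma 3.58.1 (statmod 1.5.0, R 4.3.3; figures with matplotlib 3.10.9). Arms were compared with the clone as a random block (consensus correlation 0.287). Single clones were compared with the 4 clones as fixed effects and 3 residual degrees of freedom, so those p-values compare clones, not conditions. Tests were two-sided at a Benjamini-Hochberg adjusted p of 0.05 over 54613 probe sets, and measure only the spread between these arrays, which may be technical. The fits were run on simulated arrays with known differences. Clone effects there were random in the arm fit and absent in the clone fit. That run cannot show how far the calls hold with 2 clones an arm.

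The members and gene lists were chosen with earlier results of these data known. Named genes are the members at every probe set and up to 4 called genes per list between arms (or 2 of largest difference). Up to 3 factors called between clones were also named. For each member whose brightest probe set spanned 1 log2 unit, the 3 most correlated genes were named. Other genes called between clones, such as HES1, SOX4, AGR2 and SLC2A1, fall outside this rule and were named after their values were seen. Lists were other pancreas and duct transcription factors, SOX and KLF families, duct cell genes, cartilage targets of SOX9, and classical and basal-like subtype genes. The list of each family leaves out the member itself. Listed genes without a probe set of their own are not analysed here. Sequences are from RefSeq GRCh38.p14. The closing section gives the alternatives.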

Additional observations from a re-analysis of the deposited data

Results flagged for a closer look

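KLF5 differed between the S100P-labelled clones at both probe sets by limma: the log2 difference of clone 5 minus clone 1 was -0.77 at 209211_at and -1.40 at 209212_s_at. Clone 1 was the high clone, and clone 5 lay near the vector clones. Probe set 209211_at lay below the median of every array.

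Single arrays stood apart within the 4 S100P-labelled arrays at 3 of 24 probe sets. The rate of about 1 in 20 that chance would mark assumes independent arrays. These arrays were pairs from clones 1 and 5, so that rate cannot be applied to them. GATA4 1570276_a_at read 3.39 on clone 1 array a, below the others. GATA4 243692_at read 3.63 on clone 5 array a, above the others. GATA6 210002_at read 2.54 on clone 1 array b, where the other 3 arrays shared the value 2.62.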

How the results depend on the processing

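Over the 24 probe sets and their alternatives, 810 of 885 values kept their side of the threshold and their size, 44 moved by more than the spread, 13 passed newly and 18 no longer passed. No called value changed sign, while 49 uncalled ones did. Between arms 611 probe sets passed: 1103 without the clone as a block, 8 with clone means as units, 1355 without clone 5 and 1675 without clone V3, and 159 (without V3 array a) to 1708 (without V1) with 1 array left out. Of the 24, 0 passed: 1 without the clone block, with an intensity trend, with quantile normalization or with median centring (SOX9 each time), 2 without clone 5 (KLF5), and 0 to 2 with 1 array left out. Clone 5 minus clone 1 gave 1195: 2653 with a filter on dim probe sets (mean of at least 5), 1813 with median centring, and 0 to 1195 with 1 array left out; the members called were 2, then 0 with the filter, which removed KLF5, and 0 to 2. V1 minus V3 gave 3195: 5053 with the filter and 0 to 909 with 1 array left out; the members called were 1, then 3 with the filter (SOX9 202935_s_at, GATA4 1553131_a_at and FOXA2 210103_s_at), and 0.

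For the array letters shared by clones 1, 5 and V3, differences of a minus b correlated at 0.050, -0.082 and 0.063 between clones. No common shift over all probe sets was thus seen. These correlations cannot tell whether the letters pair the arrays at some probe sets. With the letter as a replicate block, without V1, 917 probe sets and 2 of the 24 (SOX9 and FOXA1) passed between arms, against 1708 and 2 without V1 alone. Another scaling moved the median of all differences by no more than 0.1. With 2 clones an arm, clone and vector cannot be told apart. Dim probe sets such as those of PDX1, GATA6, FOXA1 and KLF5 also bound what these arrays can show.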
